A study of Mus musculus with 4 samples.

Results

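The RAB GTPases were examined in CT26 cells, a mouse colon carcinoma line, with and without knockout of iRhom1, an inactive rhomboid protein of the endoplasmic reticulum (ER) encoded by Rhbdf1. Members were taken by symbol, as RAB followed by a number and an optional letter and digit, so that RAB-like and RAB-binding proteins were left out. This gave 44 of the 21677 gene symbols in the table, each from a single row. Another 15 protein-coding genes of the GENCODE M21 annotation carry such a symbol but no row here, and Rab7, Rab5b, Rab6b, Rab28 and Rab32 are among them.

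Bulk RNA was sequenced in 2 libraries of Control cells, tagged S17 and S19, and 2 libraries of iRhom KO cells, tagged S18 and S20. All cells were grown in RPMI 1640 with fetal bovine serum and antibiotics and received no drug. The KO was made with a lentiviral CRISPR vector and puromycin selection, followed by single clone culture, while the sources leave unsaid whether the Control was the parental line or the line with an empty vector. The study calls its sequencing panels representative of independent experiments, but does not say from which cultures the libraries of a group came, so the p-values measure the spread between these libraries, which may be technical.

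RAB proteins are small GTPases that act as molecular switches on membranes. Guanine nucleotide exchange factors (GEFs) load them with GTP, GTPase-activating proteins (GAPs) return them to the GDP form, and prenylation with GDP dissociation inhibitors (GDI) moves them on and off the membrane. In the GTP form they recruit effectors such as tethers and motor adaptors, and each RAB is known for particular compartments, among them the Golgi, endosomes, lysosomes and secretory vesicles.

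Expression was given as FPKM, fragments scaled to transcript length and library size, and sequencing depth, estimated from the step that 1 fragment makes in the values of single-transcript genes, was 49700000 to 53400000 fragments per library. The row of the targeted gene could not serve as a check of the labels. Its FPKM were 0.538 and 0.890 in Control and 0.0940 and 0.0584 in iRhom1 KO, and they equal those of Apobec2, another gene, in 3 of 4 libraries. No RAB gene had the FPKM of another gene in 2 or more libraries. Of 10 epithelial markers 5 had a row, and Krt18, a keratin, was at 8.58 and 9.39 FPKM in Control and 17.4 and 18.3 in iRhom1 KO. Krt8, its partner, was at 0.0278 and 0 against 6.80 and 7.03, and the intestinal marker Cdx2 at 0.0290 and 0.0168 against 0.243 and 0.270. Vil1, another, was at or below 0.0163 in every library. Summed FPKM of the markers with a row was 18.8 and 19.9 in Control against 38.0 and 36.8 in iRhom1 KO for epithelial cells (5 markers), 22.3 and 21.6 against 12.0 and 12.0 for leukocytes (4 of 8), 3.07 and 2.93 against 0.0490 and 0.0786 for endothelial cells (3 of 6), and 65.4 and 61.2 against 111.2 and 125.1 for fibroblasts (6 of 8). Ptprc, the pan-leukocyte marker, and Pecam1, the endothelial one, were at or below 0.00630 in every library, and Thy1, a fibroblast marker, at or below 0.0265. The endothelial sum was almost all Vwf, at 3.05 and 2.91 against 0.0409 and 0.0678, and the leukocyte sum mostly Cd14, at 20.4 and 19.6 against 9.81 and 10.6. The fibroblast sum was mostly the collagens Col1a2 and Col3a1, while Pdgfra was at 1.05 and 0.916 against 0.761 and 0.724. The part of these marker changes in the RAB results was not tested.

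Of the 44 members, 35 reached a mean of 1 FPKM in at least 1 group and were tested with limma on log2(FPKM + 0.5). In iRhom1 KO, 3 were higher and 10 were lower at an adjusted p under 0.05, and 22 were not called. Those are 8.57% and 28.6% of the members tested, beside 10.7% higher and 21.9% lower among all 10271 genes tested, so the RAB family as a whole was called at rates near the background. Its median log2 fold change was -0.10, as was that of all genes. With trimmed mean scaling of the libraries the split was 6 higher and 6 lower, with a RAB median of 0.01. With quantile normalization it was 7 and 6, with a RAB median of 0.02. Library S20 was below S18 for 26 of the 35 members tested, and for 65.2% of all genes tested. In bulk RNA, fewer cells that make a transcript and less of it per cell cannot be told apart.

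The lower members were Rab31, Rab35, Rab24, Rab1b, Rab40c, Rab21, Rab12, Rab43, Rab17 and Rab4a, and the higher ones Rab30, Rab8b and Rab3a. By role, 7 of the 10 lower members belong to endosomes, lysosomes or autophagy, which hold 17 of the 35 members tested. Of the 3 higher members, 2 belong to secretory vesicles and the plasma membrane, which hold 7. Among all genes tested, 10.7% were higher and 21.9% lower. These shares by role were not tested, and the 7 lower members include Rab17 and Rab4a, whose calls were lost under most alternatives. Rab31 and Rab12 lie on chromosome 17, Rab24 on chromosome 13 and Rab35 on chromosome 5. All genes tested on these chromosomes had median log2 fold changes of -0.37, -0.34 and -0.23. With chromosome medians subtracted, Rab12, Rab24, Rab17 and Rab4a were no longer called. Summed over all 44 members, RAB expression was 594.8 and 585.1 FPKM in Control and 557.5 and 498.0 in iRhom1 KO. The early endosomal members took 27.3% and 27.0% of that sum in Control and 25.3% and 23.3% in iRhom1 KO. Without Rab31, the share of the other 6 early endosomal members did not fall, at 17.03% and 16.6% in Control and 19.98% and 17.7% in iRhom1 KO. Those 6 include Rab5c, at 10.4% and 9.98% of the sum in Control and 14.1% and 11.85% in iRhom1 KO. Rab21, Rab5a, Rab22a, Rab17 and Rab20 were each lower in both iRhom1 KO libraries than in both Control libraries. The same held for 46.1% of all genes tested. The secretory members summed to 82.7 and 80.6 FPKM in Control and 91.0 and 80.3 in iRhom1 KO, and these unscaled sums overlapped between the groups. Both this sum and that of all members depend on the scaling of a library. The factors of trimmed mean scaling were 1.034 and 1.043 in Control and 0.987 and 0.940 in iRhom1 KO. The share of the secretory members in the RAB sum was 13.9% and 13.8% in Control and 16.3% and 16.1% in iRhom1 KO. With Rab31 taken out of the total it was 15.5% and 15.4% against 17.2% and 17.1%. Shares do not depend on the scaling of a library, and those of the secretory members did not overlap, although with 2 libraries on each side the two-sided exact permutation p is 0.333 at best.

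**Figure D1:**
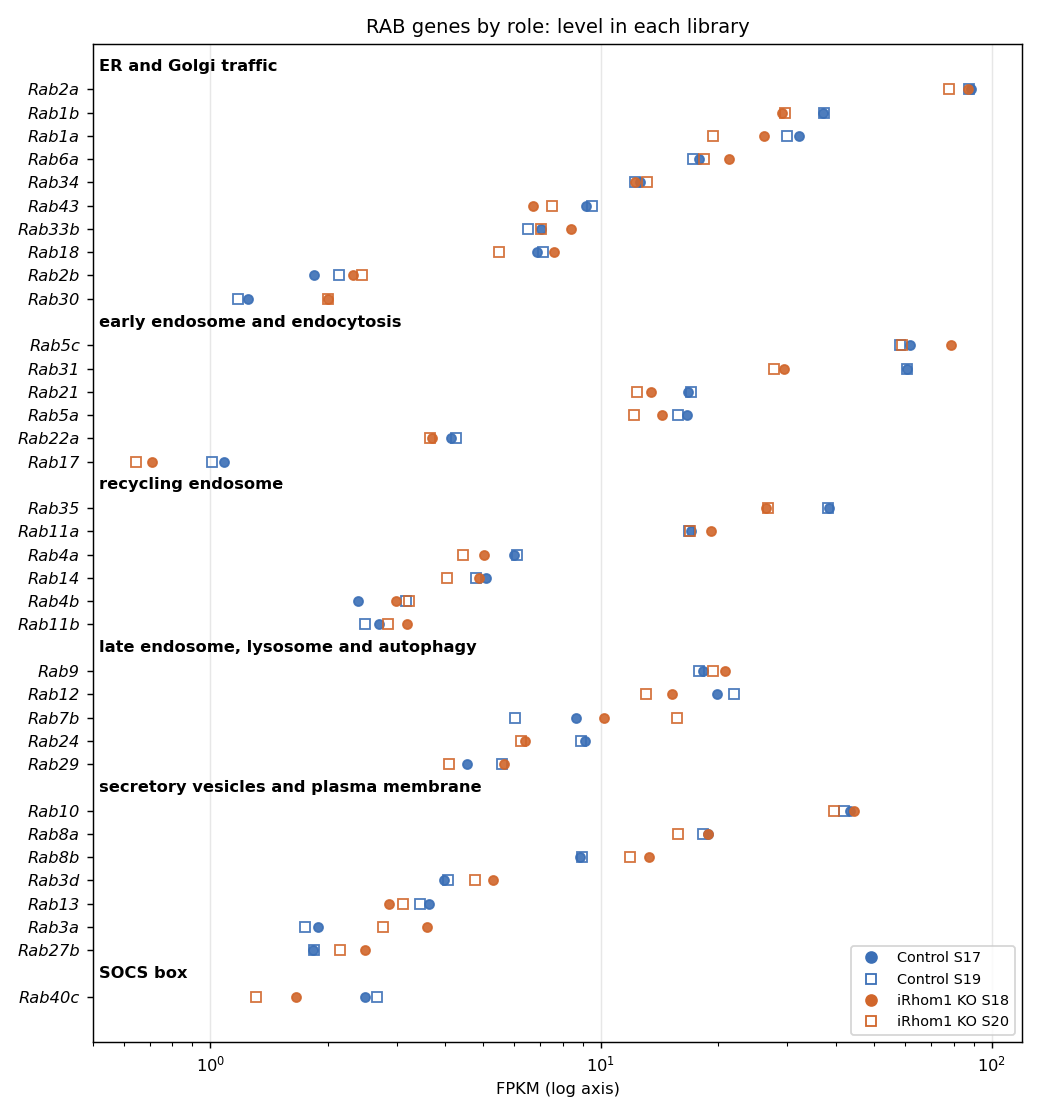
FPKM (log axis) of the 35 tested RAB genes in each of the 4 libraries, grouped by role and ordered by mean level. Blue symbols are the Control libraries and orange the iRhom1 KO libraries. Rab2a lies highest, at 77.9 to 88.8 FPKM, and Rab31 shows the widest gap between the groups among the genes above 20 FPKM.

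**Figure D2:**
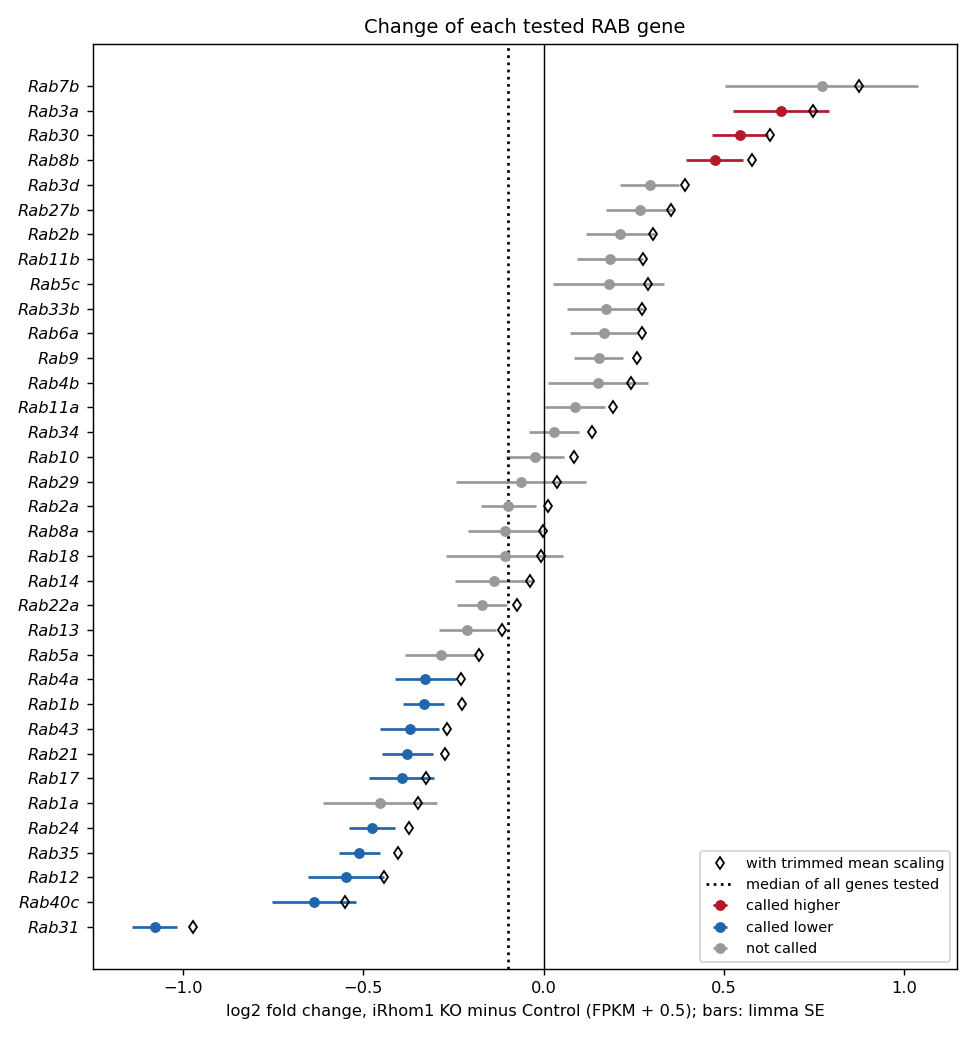
Log2 fold change of each tested RAB gene, iRhom1 KO minus Control. Bars are limma's standard error and calls are in colour. Open diamonds give the value with trimmed mean scaling, and the dotted line is the median of all genes tested, at -0.10. Rab31 lies lowest, at -1.08, and all 3 genes called higher lie above 0.4.

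Early endosomal RABs held the member with the largest change. Rab31, which acts between the trans-Golgi network and endosomes and in receptor endocytosis, is at chr17:65651729-65772752 (minus strand, GRCm38). It stood at 60.9 and 60.9 FPKM in Control and at 29.5 and 27.7 in iRhom1 KO. Both KO libraries were thus far below both Control libraries. The log2 fold change was -1.08 ± 0.06 (SE) with an adjusted p of 0.0040. Rab31 alone made up 10.2% and 10.4% of the summed RAB expression in Control and 5.28% and 5.57% in iRhom1 KO, and it moved from about the level of Rab5c to less than that of Rab10.

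Rab21, which escorts integrins through early endosomes (chr10:115287084-115315594, minus strand), was at 16.75 and 17.02 FPKM in Control and 13.4 and 12.4 in iRhom1 KO (-0.38 ± 0.07, adjusted p 0.0231). Rab17, known from the polarized transport of epithelial cells (chr1:90958133-90969661, minus strand), was low, at 1.09 and 1.01 against 0.710 and 0.647 (-0.39 ± 0.09, adjusted p 0.0364). The groups did not overlap for either gene, and Rab17 passed the level for testing only through Control. Rab5c, which with its relatives drives fusion of early endosomes, was the most abundant of this role, at 61.9 and 58.4 FPKM in Control and 78.7 and 59.0 in iRhom1 KO, and the groups overlapped (adjusted p 0.405). Its paralogue Rab5a was at 16.7 and 15.8 against 14.4 and 12.2 (-0.28 ± 0.10, adjusted p 0.0951). Rab22a, the closest relative of Rab31 in the list of paralogues, was at 4.12 and 4.26 against 3.69 and 3.65 (-0.17 ± 0.07, adjusted p 0.123). Of 6 members of this role tested, 3 were lower and none was higher, beside 21.9% lower and 10.7% higher among all genes. The 3 include Rab17, whose call was lost under most alternatives. The median log2 fold change of the role was -0.33, or -0.23 with trimmed mean scaling and -0.21 with quantile normalization. Rab20, a phagosomal RAB, fell short of the level for testing, at 0.818 and 0.710 against 0.534 and 0.387 FPKM.

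Recycling RABs return cargo from endosomes to the surface. Rab35, of the fast recycling route and of cytokinesis (chr5:115631908-115647736, plus strand), was at 38.3 and 38.1 FPKM in Control and 26.5 and 26.8 in iRhom1 KO. The libraries of a group differed by less than 1 FPKM and the groups by more than 11. Its log2 fold change was -0.51 ± 0.06 with an adjusted p of 0.0091. Rab4a, also of fast recycling (chr8:123805985-123835287, plus strand), was at 6.003 and 6.10 against 5.03 and 4.43 (-0.33 ± 0.08, adjusted p 0.0482). Its paralogue Rab4b was at 2.39 and 3.16 in Control and 2.998 and 3.22 in iRhom1 KO, and the groups overlapped. Rab11a, of the slower route through the recycling endosome, was the second most abundant of this role, at 17.05 and 16.9 against 19.2 and 16.9, again with overlap (adjusted p 0.461). Rab14 (adjusted p 0.380) and Rab11b (adjusted p 0.185) were not called, and Rab15 stayed at or below 0.0162 FPKM. The counts for this role were 2 lower and none higher of 6 tested, beside 21.9% lower and 10.7% higher among all genes. The median was -0.03, and 0.08 with trimmed mean scaling.

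Among late endosomal, lysosomal and autophagy RABs, Rab24, linked to autophagy (chr13:55319743-55321946, minus strand), was at 9.12 and 8.87 FPKM in Control and 6.39 and 6.26 in iRhom1 KO (-0.48 ± 0.06, adjusted p 0.0117). It overlaps Prelid1 on the opposite strand, which was far more abundant and also lower, at 132.7 and 135.5 against 99.0 and 99.9 (-0.43, adjusted p 0.0114). Whether reads were assigned by strand is not given in the sources used here, so reads of the overlap cannot be told apart. Rab12, which directs transferrin receptor to degradation (chr17:66494512-66519729, minus strand), was at 19.8 and 21.9 against 15.2 and 13.03 (-0.55 ± 0.10, adjusted p 0.0247). The groups of both genes stood clear of each other. Rab9, which returns cargo from late endosomes to the trans-Golgi network, was the most abundant of this role, at 18.2 and 17.8 in Control and 20.8 and 19.4 in iRhom1 KO (0.15 ± 0.07, adjusted p 0.152). Rab9 was called higher with trimmed mean scaling (0.26, adjusted p 0.0337) and with quantile normalization (0.28, adjusted p 0.0324). Rab7b, of the route from endosomes to the trans-Golgi network, had the widest standard error of the tested members, at 8.64 and 6.03 against 10.2 and 15.7 (0.77 ± 0.27, adjusted p 0.0924). Rab29, a partner of the kinase Lrrk2, overlapped between groups. Of the 5 tested, 2 were lower and none higher in the main fit, beside 21.9% lower and 10.7% higher among all genes. The median of the role was -0.06 and turned to 0.04 with trimmed mean scaling.

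Of 7 secretory and plasma membrane RABs tested, 2 were higher and none was lower, beside 10.7% higher and 21.9% lower among all genes, and the difference from the other roles was not tested. The median was 0.27, and between 0.33 and 0.35 with trimmed mean scaling, quantile normalization or subtraction of chromosome medians. Rab8b, of transport to the plasma membrane (chr9:66843664-66919687, minus strand), was at 8.84 and 8.96 FPKM in Control and 13.3 and 11.9 in iRhom1 KO (0.47 ± 0.08, adjusted p 0.0187). Rab3a, of regulated exocytosis (chr8:70754679-70758677, plus strand), was at 1.88 and 1.74 against 3.58 and 2.76 (0.66 ± 0.13, adjusted p 0.0282). Both KO libraries exceeded both Control libraries for each. Rab3a overlaps Mpv17l2 on the opposite strand, a gene without a row here. Its paralogue Rab3d was at 3.96 and 4.06 against 5.29 and 4.77 and did not pass the threshold (0.29 ± 0.08, adjusted p 0.0555), but was called with trimmed mean scaling (0.39, adjusted p 0.0201) and with chromosome medians subtracted (0.33, adjusted p 0.0479). Rab27b, also of exocytosis, was at 1.84 and 1.84 against 2.49 and 2.15 and passed with trimmed mean scaling (0.27 without and 0.35 with trimmed mean scaling, adjusted p 0.0942 and 0.0369).

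The most abundant secretory members did not follow. Rab10, of Glut4 vesicles and of basolateral transport, was at 43.3 and 41.9 FPKM in Control and 44.4 and 39.5 in iRhom1 KO (-0.02 ± 0.08, adjusted p 0.836). Rab8a was at 18.8 and 18.3 against 18.8 and 15.7 (-0.11 ± 0.10, adjusted p 0.456). The groups overlapped for both. Rab13, of tight junctions, was at 3.63 and 3.44 against 2.86 and 3.11 (-0.21 ± 0.08, adjusted p 0.109). Below the level for testing, Rab3b was at 0.335 and 0.370 against 0.164 and 0.184, Rab27a at 0.0185 and 0 against 0.158 and 0.105, and Rab37 and Rab3c were at or below 0.0599 in every library. Without the filter on low values Rab27a was called higher (adjusted p 0.0489) and Rab3b was not called (adjusted p 0.0503).

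RABs between the ER and the Golgi included the most abundant member, Rab2a, which acts at the ER-Golgi intermediate compartment. It was at 88.8 and 87.5 FPKM in Control and 87.0 and 77.9 in iRhom1 KO, a log2 fold change of -0.10 ± 0.08 that equals the median of all genes. Rab1b, of the same route (chr19:5099205-5107072, minus strand), was at 36.9 and 37.4 against 29.1 and 29.6 (-0.33 ± 0.06, adjusted p 0.0197). Rab1a, which shares its function, was at 32.1 and 30 against 26.2 and 19.4 (-0.45 ± 0.16, adjusted p 0.0926). Rab1a had the larger fold change of the pair and the wider spread between the KO libraries, and it did not pass. Rab43, of Golgi organization (chr6:87788853-87812164, minus strand), was at 9.14 and 9.52 against 6.71 and 7.504 (-0.37 ± 0.08, adjusted p 0.0339). Rab30, another Golgi RAB (chr7:92741603-92844535, plus strand), rose from 1.25 and 1.18 FPKM in Control to 1.998 and 2.003 in iRhom1 KO (0.54 ± 0.08, adjusted p 0.0136).

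The other ER and Golgi members were not called in the main fit. Rab6a, of retrograde Golgi transport, was at 17.8 and 17.2 FPKM in Control and 21.2 and 18.3 in iRhom1 KO (0.17 ± 0.09, adjusted p 0.226). It was called higher with quantile normalization (0.30, adjusted p 0.0487). Rab2b, Rab33b, Rab34 and Rab18 had log2 fold changes between -0.11 and 0.21, and Rab36 and Rab39b stayed at or below 0.171 FPKM. The role counted 1 higher and 2 lower of 10 tested, beside 10.7% higher and 21.9% lower among all genes. Its median was -0.03, or 0.07 with trimmed mean scaling. Outside these roles, Rab40c, which carries a SOCS box and joins ubiquitin ligases (chr17:25882114-25919727, minus strand), was at 2.49 and 2.67 FPKM against 1.66 and 1.31 (-0.64 ± 0.12, adjusted p 0.0226). Gm10012, a transcribed pseudogene on its opposite strand, was at 21.01 and 17.4 against 17.3 and 14.4 (adjusted p 0.199), and the same limit on strand holds. Rab23, a ciliary RAB of Hedgehog signalling, was not tested, at 0.847 and 1.11 against 0.932 and 0.601.

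Only Rab31 and Rab35 kept their call under each of the 12 alternatives run, with log2 fold changes of -1.12 to -0.71 and of -0.52 to -0.28. Without Control library S17, Rab24 (adjusted p 0.0536) and Rab8b (0.0566) were not called. Without Control library S19, Rab12 (adjusted p 0.0585), Rab3a (0.0529) and Rab8b (0.0505) were not called. Without KO library S18, Rab3a was not called (adjusted p 0.0547). Without KO library S20, Rab12 (adjusted p 0.0714), Rab30 (0.0564) and Rab40c (0.0578) were not called. Rab1b and Rab21 lost the call without any 1 of S17, S19 and S20, at adjusted p of 0.0508 to 0.0987 and of 0.0571 to 0.0918. Rab1b was also lost with trimmed mean scaling (adjusted p 0.0545) and quantile normalization (0.0707), and Rab3a (0.0642) and Rab40c (0.0546) without the filter on low values. Rab17, Rab43 and Rab4a, with the largest adjusted p among the lower members, kept it under 3 of 11, 5 of 12 and 5 of 12 alternatives, and the losses included trimmed mean scaling (adjusted p 0.0508, 0.0979 and 0.0715). They were lost without S17 (adjusted p 0.141, 0.0901 and 0.143) and without S19 (0.0837, 0.128 and 0.164). Rab17 and Rab43 were also lost without S18 (adjusted p 0.0783 and 0.0676), and Rab17 and Rab4a without S20 (0.111 and 0.0920). Leaving out a library also added calls, of Rab7b without S17 (1.01, adjusted p 0.0288) and of Rab1a without S18 (-0.67, adjusted p 0.0382).

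Paralogues were compared as ratios of FPKM within a library, which do not depend on its scaling. Differences between chromosomes stay in these ratios. Rab31, Rab5a and Rab11b are on chromosome 17, where all genes tested had a median log2 fold change of -0.37, and their paralogues are on other chromosomes. Rab8a to Rab8b was 2.13 and 2.04 in Control and 1.42 and 1.32 in iRhom1 KO. Rab22a to Rab31 was 0.0677 and 0.0701 against 0.126 and 0.131. Neither ratio overlapped between groups, and the 2 libraries of each group lay close together. Rab4a to Rab4b was 2.51 and 1.93 against 1.68 and 1.38, Rab5a to Rab5c was 0.269 and 0.270 against 0.182 and 0.206, and Rab3a to Rab3d was 0.476 and 0.429 against 0.677 and 0.579. Rab2a to Rab2b was 48.2 and 40.9 against 37.6 and 31.9, and Rab11a to Rab11b 6.30 and 6.78 against 6.02 and 5.94, again without overlap. Rab1a to Rab1b overlapped, at 0.870 and 0.803 against 0.898 and 0.654. The exact permutation test gave a two-sided p of 0.333, the smallest it can give here, for the 7 ratios without overlap and 1 for Rab1a to Rab1b. Lack of overlap was common: both KO libraries were above both Control libraries for 25.9% of all genes tested and below for 46.1%. Those shares are of single genes, and none was taken for ratios of other gene pairs.

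**Figure D3:**
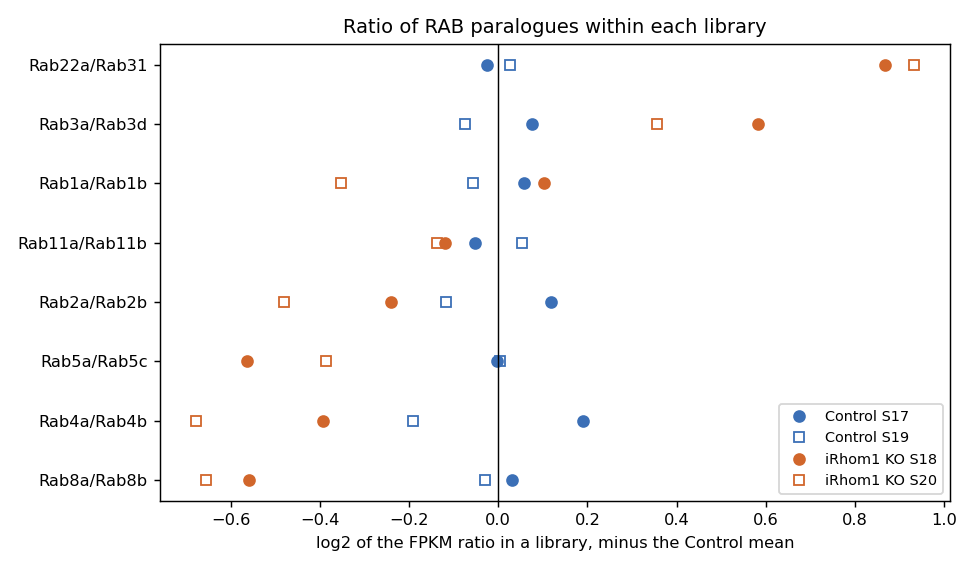
Log2 of the FPKM ratio of RAB paralogues in each library, minus the mean of the Control libraries, which is the line at 0. Rab22a/Rab31 lies highest in both iRhom1 KO libraries, Rab8a/Rab8b is lowest by the mean of the KO libraries, and Rab1a/Rab1b overlaps between the groups.

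The position of a gene went with its change. All genes tested on chromosome 17 had a median log2 fold change of -0.37, those on chromosome 13 of -0.34, on chromosome 15 of -0.32 and on chromosome 5 of -0.23, while the medians of the other numbered chromosomes and of X lay between -0.10 and -0.03. These 4 chromosomes, picked with that pattern known, carry 7 tested RAB genes, of which 5 were lower and none higher, where 41.3% of all their 2043 tested genes were lower. The other chromosomes carry 28, of which 5 were lower and 3 higher, where 17.1% of all tested genes were lower and 11.9% higher. Rab31, Rab12, Rab40c, Rab5a and Rab11b are on chromosome 17, Rab24 on chromosome 13 and Rab35 on chromosome 5. Rab31 stood below its surroundings, as the 19 other genes tested within 5 Mb had a median of -0.36. Rab24 stood close to its own, with -0.41 over 48 genes. Rab5a, at -0.28, was likewise near the median of its neighbours, at -0.34 over 46 genes. Rab12, at -0.55 ± 0.10, was below the median of its own, at -0.36 over 25 genes. Rab11b, of the recycling endosome, stood out the other way, at 2.70 and 2.48 FPKM in Control and 3.19 and 2.85 in iRhom1 KO, where 125 neighbours had a median of -0.36. Gm17251, which overlaps Rab11b on the opposite strand, was lower, at 1.85 and 1.51 against 0.773 and 0.811 (adjusted p 0.0144).

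With the median of each chromosome subtracted from the fitted log2 fold changes, 5 RAB genes were higher and 4 lower. Rab31 (-0.71, adjusted p 0.0074) and Rab35 (-0.28, adjusted p 0.0321) remained lower. Rab12 (-0.18, adjusted p 0.262), Rab24 (-0.13, adjusted p 0.192) and Rab40c (-0.27, adjusted p 0.158) were no longer called. Neither were Rab17 (adjusted p 0.0529), Rab43 (0.0556) and Rab4a (0.120), which lie on chromosomes 1, 6 and 8. Rab11b (0.55, adjusted p 0.0214) and Rab3d (adjusted p 0.0479) were called higher. Whether the cells differ in the copy number of these chromosomes was not tested, as no DNA was measured here.

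**Figure D4:**
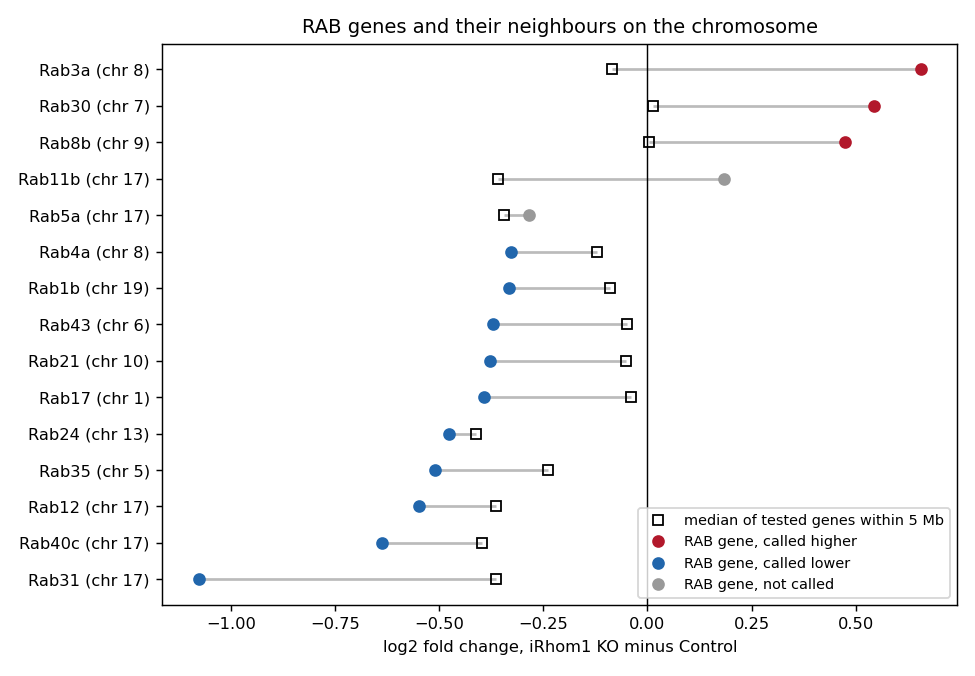
Log2 fold change of each called RAB gene and of each tested RAB gene on chromosomes 5, 13, 15 and 17 (circles, coloured by call), joined to the median of the genes tested within 5 Mb on either side (open squares). Neighbours of the genes on chromosomes 5, 13 and 17 lie between -0.41 and -0.24, and Rab31 and Rab11b lie farthest from theirs on chromosome 17.

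Promoters are shown for Rab31, the member with the largest fall, and for Rab8b and Rab8a, the paralogues whose ratio fell most. Each line gives the 250 bases before the transcription start in RefSeq on GRCm38.p6, 5′ to 3′ on the strand of the gene. The stretches are chr17:65772753-65773002 (minus strand) for Rab31, chr9:66919706-66919955 (minus strand) for Rab8b and chr8:72160950-72161199 (plus strand) for Rab8a. Capitals mark CCAAT boxes (CCAAT or its complement ATTGG) and GC boxes (GGGCGG or its complement CCGCCC).
Rab31: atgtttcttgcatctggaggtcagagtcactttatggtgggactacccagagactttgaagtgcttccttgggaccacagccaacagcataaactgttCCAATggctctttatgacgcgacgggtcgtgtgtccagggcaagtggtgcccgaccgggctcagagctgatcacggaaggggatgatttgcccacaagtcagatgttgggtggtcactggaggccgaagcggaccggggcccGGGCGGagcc
Rab8b: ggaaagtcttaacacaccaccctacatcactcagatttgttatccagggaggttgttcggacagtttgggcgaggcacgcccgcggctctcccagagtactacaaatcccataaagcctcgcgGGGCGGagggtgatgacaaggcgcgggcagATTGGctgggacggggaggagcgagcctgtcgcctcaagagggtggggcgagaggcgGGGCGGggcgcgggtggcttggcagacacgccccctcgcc
Rab8a: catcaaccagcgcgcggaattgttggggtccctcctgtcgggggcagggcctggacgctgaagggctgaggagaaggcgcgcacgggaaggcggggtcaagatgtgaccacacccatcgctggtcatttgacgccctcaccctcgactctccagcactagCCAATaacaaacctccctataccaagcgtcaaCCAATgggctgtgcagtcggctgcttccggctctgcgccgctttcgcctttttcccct

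Rab8b, which was higher, holds 2 GC boxes and 1 CCAAT box in this stretch, and Rab8a none and 2. Rab31, which was lower, holds 1 of each. Of the 44 members 36 had a window of these 250 bases and the 50 after the start. Members and genes tested were counted by gene, with a match in any window of the gene, while all windows were counted singly. Of the genes tested, 6977 had a window. A GC box occurred in 77.8% of these 36 members, beside 71.1% of those 6977 genes and 35.7% of all 32851 windows. A CCAAT box occurred in 52.8%, beside 44.3% and 37.4%, and TATAAA in 5.56%, beside 8.40% and 13.6%. The E-box CACGTG occurred in 16.7%, beside 12.4% and 7.15%, and the shorter ACGTG, which every E-box contains, in 30.6%, beside 30.7% and 19.6%. Both strands were searched, and a match is a description of the letters only.

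The genes that load, unload, carry and read RAB proteins were counted in 4 lists. Together 105 of their 170 genes were tested, of which 9 were higher and 19 lower, or 8.57% and 18.1%, with a median log2 fold change of -0.07. With trimmed mean scaling 16 were higher and 16 lower. These rates are beside 10.7% and 21.9% for all genes.

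Among RAB GEFs, 4 of 33 tested were higher and 3 lower. Smcr8 and C9orf72, partners in a complex of DENN domain proteins in autophagy, were called in opposite directions. Smcr8 was at 5.16 and 5.11 FPKM in Control and 2.61 and 2.25 in iRhom1 KO (-0.95, adjusted p 0.0070), and C9orf72 was at 2.999 and 2.88 against 6.23 and 5.18 (0.85, adjusted p 0.0108). Trappc2l, a subunit of the TRAPP complexes that act on Rab1 and Rab11, was at 15.2 and 14.99 against 9.06 and 9.38 (-0.68, adjusted p 0.0065). Mon1b, of the Mon1-Ccz1 exchange factor for Rab7, was lower by a smaller step (-0.42, adjusted p 0.0220). The other higher GEFs were Sbf2 (0.58, adjusted p 0.0110), Ric1, of the Rab6 exchange factor (0.52, adjusted p 0.0258), and Ankrd27, which acts on Rab21 (0.27, adjusted p 0.0402). With either S19 or S20 left out, 2 GEFs were higher and 2 lower.

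Among RAB GAPs, 1 of 27 tested was higher and 7 were lower. Sgsm3 was at 5.43 and 5.97 FPKM in Control and 3.25 and 3.29 in iRhom1 KO (-0.72, adjusted p 0.0088), and Tbc1d2, which acts on Rab7, at 2.98 and 2.62 against 1.53 and 1.68 (-0.65, adjusted p 0.0147). Tbc1d22a (-0.41, adjusted p 0.0172) and Tbc1d22b (-0.39, adjusted p 0.0173), a pair of related TBC domain proteins at the Golgi, were both lower. Sgsm3 and Tbc1d22a are on chromosome 15 and Tbc1d22b is on chromosome 17, whose medians are given above. Evi5l was the higher one (0.40, adjusted p 0.0259). No GAP was called higher once any 1 library was left out. Those lower then numbered 3 without S17, 3 without S19, 4 without S18 and 1 without S20, and 2 with chromosome medians subtracted.

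For prenylation, GDI and membrane insertion, 1 of 13 tested was higher and 3 were lower. Gdi2, which extracts GDP-bound RABs from membranes, was at 34.4 and 32.9 FPKM in Control and 24.9 and 21.9 in iRhom1 KO (-0.52, adjusted p 0.0185), on chromosome 13. Yipf3 (-0.60, adjusted p 0.0215) and Yipf4 (-0.36, adjusted p 0.0398), Golgi proteins of the YIP family, are on chromosome 17. Yif1b, a relative that also binds RABs, rose from 19.4 and 19.6 to 34.0 and 40.5 (0.91, adjusted p 0.0092). Of this list 1 was still called higher with each library left out, while those lower numbered 2, or 1 without S20, and none with chromosome medians subtracted.

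Among RAB effectors, 3 of 32 tested were higher and 6 lower. Rufy1, an endosomal effector of Rab4 and Rab14, was at 12.2 and 12.99 FPKM in Control and 7.73 and 6.66 in iRhom1 KO (-0.77, adjusted p 0.0106). Plin3, which binds Rab9 and coats lipid droplets, was at 20.4 and 19.5 against 12.7 and 13.4 (-0.59, adjusted p 0.0092), on chromosome 17. Rims2, on chromosome 15 and an effector of Rab3, was at 1.26 and 1.22 against 0.592 and 0.615 (-0.66, adjusted p 0.0108). Rims2 passed the level for testing only through Control. Myo5a, a motor recruited by several RABs, was lower too (-0.47, adjusted p 0.0142). Appl2, an effector of Rab5 (0.48, adjusted p 0.0234), Rab11fip2, of Rab11 (0.41, adjusted p 0.0268), and Rabepk, of Rab9 (0.29, adjusted p 0.0329), were higher. No effector was called higher once any 1 library was left out, nor without the filter on low values, while those lower ranged from 3 (without S20) to 7 (without S18), and numbered 2 with chromosome medians subtracted. Of 4 RAB-like proteins tested, Rabl2, on chromosome 15, was lower (-0.46, adjusted p 0.0253) and the others were not called.

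**Figure D5:**
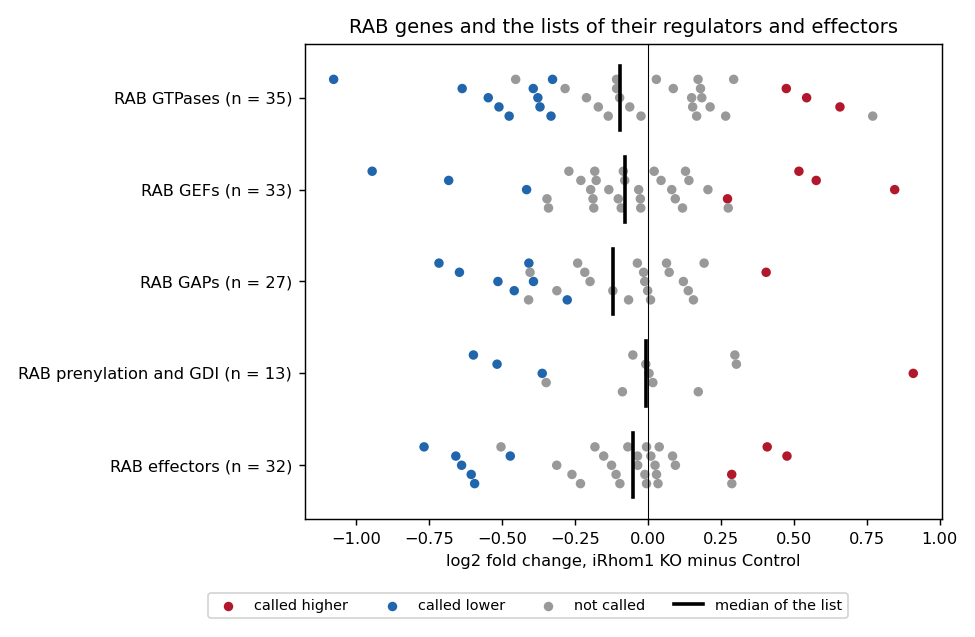
Log2 fold change, iRhom1 KO minus Control, of each tested RAB gene and of each tested gene in the lists of exchange factors, activating proteins, prenylation and GDI genes, and effectors, coloured by call, with the median of each list as a black bar. The medians lie between -0.12 and -0.01, and in each list called genes lie on both sides of 0.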

How the data were processed

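The deposited table gave FPKM per gene and library, made by the authors with HISAT2 and StringTie on GRCm38; versions, annotation and any scaling beyond FPKM are not given in the sources used here. The authors' fold and log2 columns hold their own comparison and were not used. From 21724 rows, 19 that name no gene were dropped, and 54 rows of 26 repeated symbols were summed. Positions came from GENCODE M21.

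Log2(FPKM + 0.5) of the 10271 genes whose mean reached 1 FPKM in either group was fitted with limma 3.58.1 (R 4.3.3, trend, not robust), with Benjamini-Hochberg adjustment over all genes tested and a threshold of 0.05. Low genes' changes are understated by the pseudocount. The code was tested on simulated data. The columns show the group of a library but not its replicate number.

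Members, lists, roles and alternatives were chosen with earlier results of these data known. Genes named are all called members, the 2 most abundant of each role, paralogues of called members, every member below the level for testing, and up to 4 called genes per direction and list. Remaining members, overlapping genes, markers and Rabl2 were named outside this rule. Alternatives were other pseudocounts, filters and scalings, robust limma, chromosome medians and each library left out.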

Additional observations from a re-analysis of the deposited data

How the results depend on the processing

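Pseudocounts of 0.1 and 1 and robust limma gave the same 3 higher and 10 lower RAB genes. Counts of RAB genes lower were 6 without the filter on low values, 6 with trimmed mean scaling, 6 with quantile normalization and 4 with chromosome medians subtracted. Counts higher were 1 with a mean of at least 5 FPKM required (24 genes tested), 6 with trimmed mean scaling, 7 with quantile normalization and 5 with chromosome medians subtracted. With 1 library left out, RAB genes higher ranged from 1 to 3 and lower from 4 to 9. The RAB median was 0.011 with trimmed mean scaling, 0.018 with quantile normalization and -0.0066 with chromosome medians subtracted, and ranged from -0.1765 (without S18) to 0.0162 (without S20). Genes of the 4 lists called higher numbered 5 without the filter, 16 with either scaling and 14 with chromosome medians subtracted, and lower 7 with chromosome medians subtracted. With 1 library left out they ranged from 3 to 4 higher and from 7 to 16 lower. All genes called higher numbered 727 with a mean of at least 5 FPKM and 1701 with trimmed mean scaling, and lower 1253 with chromosome medians subtracted. With 1 library left out these ranged from 561 to 745 higher and from 1096 to 1713 lower. The median of all genes was -0.0101 without the filter, -0.0013 with trimmed mean scaling, -0.0028 with quantile normalization and 0 by construction with chromosome medians subtracted. The sign of the RAB median thus depended on the setting, while no called RAB gene changed sign under any alternative. Trimmed mean scaling divided the libraries by 1.034 and 1.043 in Control and by 0.987 and 0.940 in iRhom1 KO, which raises the log2 fold changes by construction. Apart from these factors and the fewer libraries or genes tested in some alternatives, the cause of these shifts was not tested.

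No paired analysis was possible because the value columns carry library tags and no replicate numbers.

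With 2 libraries a group, small changes of members near 1 FPKM could not be resolved, and the fragments behind each FPKM were known only through the estimated library totals.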

Other observations

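Some other small GTPases were counted in the same fit. Among ARF, ARL and SAR1 GTPases, of vesicle coats and organelle transport, 2 of 19 tested were higher and 2 lower, with a median log2 fold change of -0.17. Arl6, a ciliary GTPase, was at 6.10 and 7.74 FPKM in Control and 14.7 and 12.5 in iRhom1 KO (0.93, adjusted p 0.0163), and Arl3, also ciliary, was higher too (0.37, adjusted p 0.0368). Arl8b, which moves lysosomes outward along microtubules, was at 41.2 and 40.3 against 28.4 and 23.2 (-0.66, adjusted p 0.0194), and Arf3, of the Golgi, was lower (-0.63, adjusted p 0.0074). Among RAS GTPases, 4 of 16 tested were higher and 4 lower, with Rala at 37.5 and 38.1 against 26.4 and 22.3 (-0.63, adjusted p 0.0169). Rras was among the higher ones (0.68, adjusted p 0.046). Arf3 is on chromosome 15 and Rala on chromosome 13, whose medians are given above. The counts of both families stand beside 10.7% higher and 21.9% lower among all genes tested. The remaining called genes are not named, and those named were chosen after their values were seen.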
